A study of Mus musculus with 51 samples.

Results

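The regions described here were the strong 5-hydroxymethylcytosine (5hmC) peaks of control mouse femurs at which no peak was listed in femurs without Tet1 and Tet2 in the limb mesenchyme. A region was taken when the peak list of the Ctrl femurs gave it a -log10 q of at least 10 on chromosomes 1 to 19 and no peak of the Tet1/2 cKO list shared 1 bp with it. The rule found 33920 regions among 129008 Ctrl peaks of that strength and 257305 Ctrl peaks in all on these chromosomes. They are called lost peaks below, and the 95088 strong Ctrl peaks with a Tet1/2 cKO peak are called kept peaks. Both names stand for presence or absence in a list, since 1 list was made from the pooled reads of 3 femurs in each group. No test between the 2 groups was therefore possible for any single region, and the regions were selected on 2 measured values, the -log10 q in Ctrl and the absence of a Tet1/2 cKO peak. What these 2 lists show of them is therefore a description.

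TET enzymes oxidise 5-methylcytosine to 5hmC in a reaction that needs iron and 2-oxoglutarate and that vitamin C (VitC) favours. 5hmC lies mainly in the bodies of active genes and in enhancers, and it can mark DNA on the way to losing its methyl group. In hMeDIP-seq, sheared DNA is pulled down with an antibody to 5hmC and sequenced, so that a peak is a stretch with more fragments than its surroundings.

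The Ctrl mice carried Prrx1-Cre alone, and the Tet1/2 cKO mice carried Prrx1-Cre with both floxed Tet1 and floxed Tet2 alleles. Prrx1-Cre is active in the limb mesenchyme that gives rise to bone, cartilage and fibroblasts, so that the blood cells of the marrow keep their Tet genes. These mice were 11 weeks old, were C57BL/6 and made their own VitC. The second mouse model, Gulo-/-, cannot make VitC. It was given 3.3 g/L VitC in the drinking water up to 20 weeks of age (VitC+) or only up to week 15, followed by withdrawal until 20 weeks (VitC+/-). MC3T3-E1, a line of calvarial osteoblasts, was grown for 28 days with 50 μg/ml VitC (VitC+) or without it (VitC-) for 5hmC. Each of these femur groups had 3 hMeDIP-seq and 3 RNA-seq libraries and each MC3T3-E1 group had 2 libraries per mark. The RNA fits also held 3 RNA-seq libraries each of Tet1 cKO, Tet2 cKO and wild-type (WT) femurs. The Tet1 cKO and Tet2 cKO mice, 11 weeks old and C57BL/6, carried Prrx1-Cre with floxed alleles of Tet1 alone or Tet2 alone. The WT mice were 20 weeks old and VitC-sufficient. RNA was taken from femurs that had been flushed and cut up, and whether those for DNA were flushed is not given in the sources used here. Femurs hold many cell types, so fewer cells of a type and less RNA or 5hmC per cell cannot be told apart.

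The 10 strongest lost peaks had -log10 q values of 55.4 to 80.6 and Ctrl fold enrichments of 7.73 to 10.58 over background. Of these, 7 lay in introns, 1 in a coding exon of Rnf13, 1 just upstream of the Dnmbp start site and 1 far from any gene. The first 4 sequences below are the central 300 bases of strong lost peaks, shown for how their CpG sites are spread. The other 2 are those of the lost peaks nearest to the start sites of the bone genes Spp1 and Dlx3. All are read 5′ to 3′ on the plus strand of GRCm38 (mm10) from RefSeq, and the capitals mark CpG dinucleotides, where most methylation and hydroxymethylation sits.
Nt5c2 intron, chr19:46913435-46913734: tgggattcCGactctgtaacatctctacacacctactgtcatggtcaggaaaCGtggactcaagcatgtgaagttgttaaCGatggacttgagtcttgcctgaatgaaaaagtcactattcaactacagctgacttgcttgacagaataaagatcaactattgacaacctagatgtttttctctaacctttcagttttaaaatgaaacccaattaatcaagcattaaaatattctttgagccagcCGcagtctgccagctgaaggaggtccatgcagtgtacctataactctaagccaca
Ccdc126 intron, chr6:49332446-49332745: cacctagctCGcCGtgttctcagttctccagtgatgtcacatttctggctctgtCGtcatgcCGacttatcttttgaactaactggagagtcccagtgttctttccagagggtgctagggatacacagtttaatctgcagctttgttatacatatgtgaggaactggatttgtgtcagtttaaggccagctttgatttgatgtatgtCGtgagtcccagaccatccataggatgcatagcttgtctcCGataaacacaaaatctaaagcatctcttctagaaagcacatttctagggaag
upstream of Dnmbp, chr19:43941073-43941372: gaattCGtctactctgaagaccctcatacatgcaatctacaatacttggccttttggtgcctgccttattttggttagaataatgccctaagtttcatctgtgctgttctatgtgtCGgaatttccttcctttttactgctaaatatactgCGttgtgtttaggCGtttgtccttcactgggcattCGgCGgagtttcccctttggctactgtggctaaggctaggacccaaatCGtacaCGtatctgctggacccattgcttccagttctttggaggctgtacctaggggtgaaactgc
distal simple repeat, chr5:85018765-85019064: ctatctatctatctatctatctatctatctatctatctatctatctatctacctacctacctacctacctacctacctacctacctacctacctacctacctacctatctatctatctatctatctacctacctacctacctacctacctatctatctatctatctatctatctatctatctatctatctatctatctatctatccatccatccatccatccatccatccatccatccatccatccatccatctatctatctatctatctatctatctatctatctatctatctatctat
Spp1 coding exon, chr5:104440292-104440591: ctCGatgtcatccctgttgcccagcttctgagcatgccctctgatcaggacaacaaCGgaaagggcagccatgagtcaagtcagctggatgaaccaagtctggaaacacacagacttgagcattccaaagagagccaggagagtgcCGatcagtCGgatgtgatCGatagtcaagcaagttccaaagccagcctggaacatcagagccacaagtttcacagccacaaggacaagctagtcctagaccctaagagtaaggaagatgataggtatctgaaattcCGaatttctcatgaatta
upstream of Dlx3, chr11:95117808-95118107: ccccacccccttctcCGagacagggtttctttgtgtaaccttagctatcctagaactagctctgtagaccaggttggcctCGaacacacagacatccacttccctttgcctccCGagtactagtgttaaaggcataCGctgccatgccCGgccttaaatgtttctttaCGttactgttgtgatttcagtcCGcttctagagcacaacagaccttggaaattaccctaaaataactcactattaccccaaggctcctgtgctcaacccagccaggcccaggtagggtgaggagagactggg

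The strongest lost peak, at chr19:46912935-46914235 in an intron of Nt5c2, a cytosolic nucleotidase gene, had a Ctrl fold of 10.58. The nearest Tet1/2 cKO peak was 727 bp away. The next strongest, at chr5:85018764-85019065, lay 601 kb from the nearest coding start site (Epha5), 149044 bp from the nearest Tet1/2 cKO peak. Its window was a run of 4-base repeats with 0 CpG, 100% masked as repeat in the reference. The 2 Gulo-/- femur lists and the 2 MC3T3-E1 lists also held a 5hmC peak there. The lost peak near Runx2, the master transcription factor of osteoblasts, had a -log10 q of 32.8 and lay 6.91 kb upstream of the start site. It was in an intron of Supt3, and its central 300 bases held 0 CpG and were 74.3% masked as repeat. The peak in Spp1, which encodes osteopontin, had its central 300 bases wholly in coding sequence, with 6 CpG, and those of the peak upstream of Dlx3, a homeobox gene of bone and teeth, held 7. At the threshold the 3 lost peaks just inside it had a -log10 q of 10.0 and a fold of 3.52 with those in Plekhm3 and Samd5 both in introns. The 3 Ctrl peaks without a Tet1/2 cKO peak just outside it had a -log10 q of 9.99 and a fold of 3.03 in introns of Fhl2, Mob4 and Rnpepl1.

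Lost peaks were the weaker and shorter of the strong peaks. Their median -log10 q was 13.6 against 23.0 in kept peaks, their median fold 3.93 against 5.08, and their median length 680 bp against 1318 bp. The share lost went down with strength in each step, from 56.8% of 20292 peaks with a -log10 q of 10 to 12, over 44.3% at 12 to 15, 30.9% at 15 to 20 and 15.2% at 20 to 30, to 3.45% at 30 to 50. At 50 and above it was 0.261%, or 29 of 11108. At the same -log10 q, lost peaks were also shorter than kept ones, with medians of 597 and 813 bp at 10 to 12 and 826 and 1316 bp at 20 to 30.

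**Figure D1:**
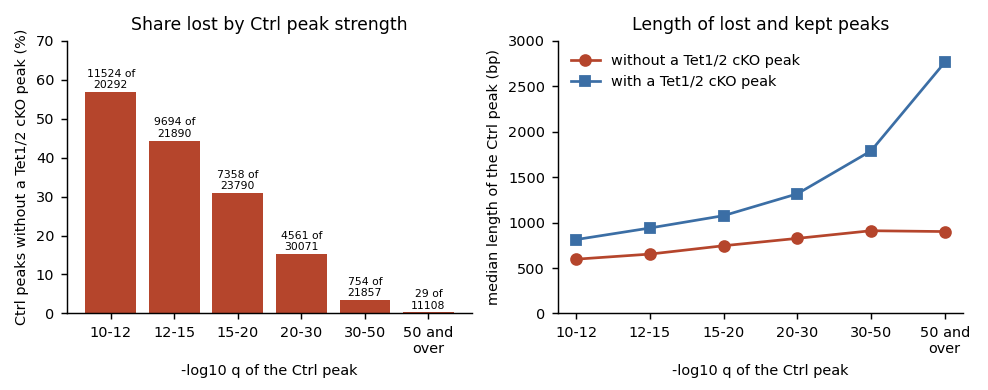
Left, the share of strong Ctrl peaks without a Tet1/2 cKO peak (%) in 6 ranges of the Ctrl peak's -log10 q, with counts above the bars; right, the median length in bp of lost and kept peaks in the same ranges. The share lost went from 56.8% to 0.261%, and lost peaks were shorter than kept ones in every range.

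The Tet1/2 cKO list implied the lower background. The background that its folds and p-values imply was a median of 3.75 fragments, against 11.0 in the Ctrl list, and it held 145925 peaks on these chromosomes against 257305. Over all strengths, 53.2% of Ctrl peaks had no Tet1/2 cKO peak. In the other direction, 31 of 31222 Tet1/2 cKO peaks with a -log10 q of at least 10 had no Ctrl peak (0.0993%). The lowest Tet1/2 cKO peaks, 5559 with a -log10 q under 2, had a median fold of 2.57, and 95% of them had a fold of at most 2.77. Of the lost peaks, all but 5 had a Ctrl fold above 2.77, which is largely set by the rule's -log10 q of at least 10 in Ctrl. It therefore cannot show how many of them could be listed at the lower background. In kept peaks the ratio of the Tet1/2 cKO fold to the Ctrl fold was 1.01 at a -log10 q of 10 to 12, where only a peak high enough to be called enters, and 0.798 at 50 and above, where nearly all peaks were kept. The peak lists do not give read depth itself. How much of the loss goes with the lower background, or with a lower read depth, was not tested.

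Most lost peaks were not next to a surviving one. The median distance to the nearest Tet1/2 cKO peak was 2759 bp, with 1776 lost peaks (5.24%) within 500 bp and 6045 (17.8%) over 10 kb away. Taken along each chromosome, 15827 lost peaks stood alone between kept strong peaks, and 149 runs held 6 or more lost peaks with no kept strong peak in between. The longest had 11 members. The first, chr1:56364214-56612028, spanned 248 kb without a coding gene. The other, chr17:50197323-50285219, spanned 87.9 kb and held Dazl, a gene of germ cells.

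Lost peaks lay mostly inside genes, and among strong peaks those in coding exons and 3′ UTRs were lost most often. The midpoint of 70.3% of lost peaks was inside a gene (95% exact binomial interval 69.8 to 70.8, which covers counting error only), against 73.9% of kept and 68.7% of all Ctrl peaks. Introns held 58.4% of lost and 63.5% of kept peaks, and 41.6% of the genome. Sequence over 3 kb from any gene held 22.7% of lost and 19.3% of kept peaks, and 47.6% of the genome. Coding exons held 4.26% of lost and 2.38% of kept peaks, and 1.25% of the genome. Of the 3711 strong peaks in coding exons 38.9% were lost, against 24.7% of the 80185 in introns. The difference was there at each strength: 71.6% in coding exons and 57.2% in introns at a -log10 q of 10 to 12, and 28.2% and 14.6% at 20 to 30. In 3′ UTRs 33.3% were lost. The lowest share was in 5′ UTRs, with 17.9%, followed by 23.4% within 1 kb of a start site and 24.4% in noncoding exons.

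**Figure D2:**
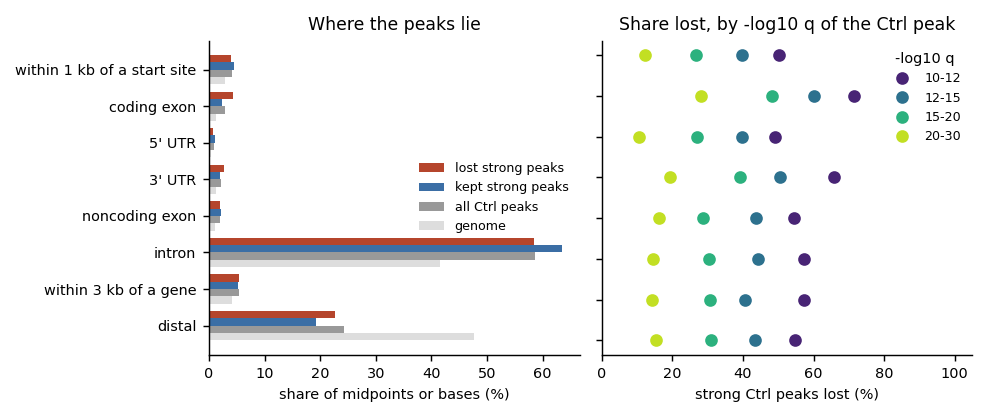
Left, the share (%) of lost peaks, kept peaks and all Ctrl peaks with their midpoint in each kind of place, and of the bases of chromosomes 1 to 19; right, the share of strong Ctrl peaks lost in each place, by the Ctrl peak's -log10 q. Coding exons have the highest share lost in all 4 ranges, from 71.6% to 28.2%.

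Lost peaks held more CpG sites per kb than kept ones of the same strength, in each range of -log10 q up to 50. The median was 14.6 CpG per kb in lost peaks and 13.7 in kept peaks, against 8.51 over the genome. At a -log10 q of 10 to 12 it was 14.6 and 12.7, and at 20 to 30 it was 14.7 and 13.7. Median GC content of the central 300 bp was 46.0% in lost and 47.0% in kept peaks. Repeats made up 19.7% of these windows in lost and 21.1% in kept peaks. The motifs of factors active in bone and marrow were about as frequent in both. Both strands of the central 300 bp were searched. The RUNX motif TGTGGT was in 24.9% of lost, 23.6% of kept and 23.9% of all Ctrl windows. The AP-1 motif TGANTCA was in 9.43%, 9.32% and 9.43%, and the homeodomain motif TAATTA, as bound by DLX and MSX factors, in 8.06%, 7.16% and 7.41%. The TEAD motif GGAATG was in 15.3%, 16.1% and 16.2%, and the C/EBP motif TTGCNNAA in 12.7%, 11.4% and 11.7%. The PU.1 motif GAGGAAGT was in 2.81%, 2.54% and 2.59%, the GATA motif AGATAAG in 3.81%, 3.70% and 3.78%, and the EBF motif in 0.619%, 0.739% and 0.715%. The paired NFI motif was in 0.0354%, 0.0294% and 0.0295%.

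Chromosomes 19 and 6 had the highest shares lost. On chromosome 19, 1424 of 3865 strong peaks were lost (36.8%), and on chromosome 6, 2466 of 7641 (32.3%). The other 17 chromosomes ranged from 22.5% to 28.5%. Among peaks with a -log10 q of at least 20, the shares were 15.0% and 13.2% against 6.07% to 10.0%. The background implied by the Tet1/2 cKO peaks was 4.19 fragments on chromosome 19 and 3.96 on chromosome 6, against 3.73 to 3.81 on the others. In the Ctrl list it was 11.0 on both, against 11.0 to 11.1. The median fold of the Tet1/2 cKO peaks was 3.83 and 3.88 on these chromosomes and 3.97 to 4.09 elsewhere. The part of this background in the shares was not tested. Of the 10 strongest lost peaks, 3 were on chromosome 19 and 2 on chromosome 6.

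**Figure D3:**
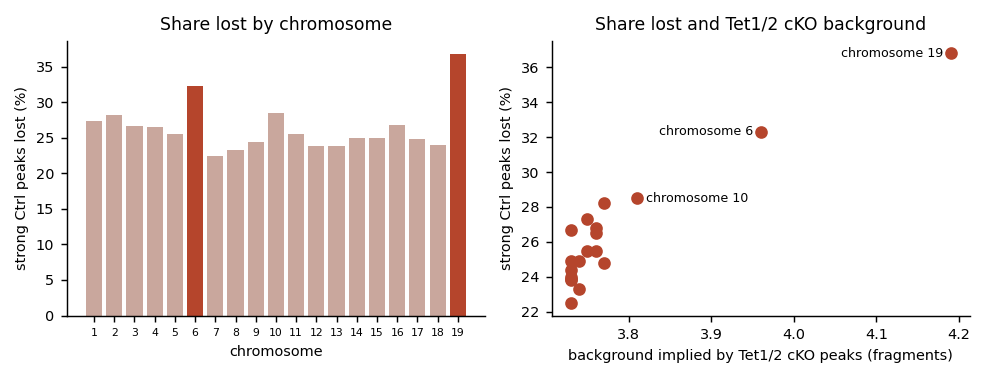
Left, the share of strong Ctrl peaks lost (%) on each of 19 chromosomes; right, the same share against the median background, in fragments, that the Tet1/2 cKO peaks of that chromosome imply (1 point per chromosome, axes not from 0). Chromosomes 6 and 19 lie apart, with 32.3% and 36.8% lost at 3.96 and 4.19 fragments.

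About as large a share of the lost peaks as of all Ctrl peaks was also a 5hmC peak in Gulo-/- femurs. In the VitC+ femur list 52.4% of lost peaks had a peak, against 66.3% of kept and 52.3% of all Ctrl peaks. In the VitC+/- list the shares were 43.2%, 57.0% and 44.3%. Kept peaks overlapped more often at each strength, with 52.5% against 47.7% in VitC+ at a -log10 q of 10 to 12 and 65.7% against 60.5% at 20 to 30. Neither list held a peak at 45.3% of lost peaks.

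VitC-dependent peaks, here those with a VitC+ but no VitC+/- femur peak, made up nearly the same share of lost and kept peaks. They were 3891 of the lost peaks (11.5%, 95% exact binomial interval 11.1 to 11.8), 10.9% of kept and 10.3% of all Ctrl peaks. In the ranges of -log10 q up to 50 they were 11.1% to 12.1% of lost and 10.2% to 11.9% of kept peaks. The reverse, a VitC+/- but no VitC+ peak, was found for 2.29% of lost and 1.6% of kept peaks. Of the lost peaks in the VitC+ list, 21.9% had no VitC+/- peak, against 16.4% of kept and 19.7% of all Ctrl peaks. These VitC-dependent peaks were weak in VitC+, with a median fold of 3.95 in lost and 4.10 in kept peaks. The median of the VitC+ list was 4.30. Where both lists had a peak, at 13879 lost peaks, the median fold was 6.01 in VitC+ and 5.24 in VitC+/-, and the VitC+/- fold was the lower at 64.7%. In kept peaks the medians were 7.02 and 6.09 and the share was 66.8%. Among peaks of like strength the order of these shares was the reverse. At a -log10 q of 10 to 12 the VitC+/- fold was the lower at 61.2% of lost and 55.1% of kept peaks, and at 20 to 30 at 67.9% and 67.2%. The 2 femur lists covered 175 Mb each, with 371568 peaks in VitC+ and 399599 in VitC+/-.

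Of the 4 other 5hmC lists, that of osteoblasts grown without VitC showed the widest gap between lost and kept peaks. In MC3T3-E1 cells with VitC, 50.7% of lost peaks had a 5hmC peak, against 74.7% of kept and 53.8% of all Ctrl peaks. Without VitC only 21.1% had one, against 50.3% of kept and 35.1% of all Ctrl peaks. The gap did not narrow with strength: 21.7% against 47.0% at a -log10 q of 10 to 12, and 20.3% against 46.6% at 20 to 30. Nor did it close among peaks of like length, with 18.1% of 10699 lost against 43.4% of 14509 kept peaks of 500 to 750 bp. A VitC+ but no VitC- peak was found at 35.5% of lost and 32.8% of kept peaks. At 1449 lost peaks (4.27%) and 4.03% of kept peaks the 5hmC peak was missing both from VitC+/- femurs and from VitC- cells while present in the VitC+ counterpart. The VitC+ cells had the longer covered length, with 195 Mb against 144 Mb, although their list had fewer peaks, 253424 against 278591.

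**Figure D4:**
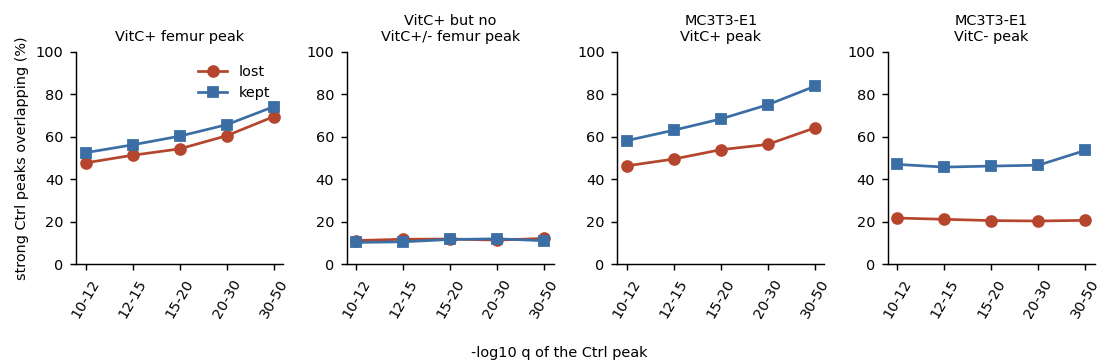
The share (%) of lost and kept strong Ctrl peaks that overlap a VitC+ femur peak, a VitC+ but no VitC+/- femur peak, an MC3T3-E1 VitC+ peak and an MC3T3-E1 VitC- peak, by the Ctrl peak's -log10 q. Lost and kept peaks lie together in the second panel and furthest apart in the last, with 21.7% against 47.0% at 10 to 12.

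Repressive histone marks of MC3T3-E1 cells were about as frequent at lost as at kept peaks over all strengths together. H3K27me3, the mark of Polycomb repression, had a peak at 9.38% of lost and 9.52% of kept peaks in VitC+ cells and at 12.8% and 13.1% in VitC- cells. H3K9me3, a mark of heterochromatin, had one at 1.89% and 1.85% in VitC+ cells and at 3.87% and 4.42% in VitC- cells. Among peaks of like strength, H3K27me3 was less frequent at lost peaks, which were also the shorter. Peaks of like length were not compared for this mark. At a -log10 q of 10 to 12 it was at 9.93% of lost and 12.3% of kept peaks in VitC+ cells and at 13.6% and 17.4% in VitC- cells, and at 20 to 30 these shares were 8.44% and 9.73%, and 10.8% and 13.3%.

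Lost peaks were spread over many genes. Of 23185 measured genes on these chromosomes, 13052 (56.3%) had at least 1 lost peak within 30 kb of their start site, 5555 had exactly 1 and 22 had 8 or more. Genes with a lost peak had a median of 168 normalised counts per kb of exon in Ctrl femurs, against 53.7 over all measured genes. The latter include 5490 genes without any strong peak within 30 kb, whose median was 0. Where genes had 10 or more strong peaks, the median was 248 with under 10% of them lost and 271 with 50% or more lost. Counted over pairs of a gene and a peak within 30 kb, 25.3% of the strong peaks were lost. The genes with the most lost peaks within 30 kb were Ermp1, a metallopeptidase gene of the endoplasmic reticulum, with 11 of 14 strong peaks lost, and Syt6, a synaptotagmin gene, with 10 of 13. Cct2, which encodes a chaperonin subunit, had 9 of 19, Anp32e, a histone H2A.Z chaperone gene, 9 of 12, and Col25a1, a collagen gene, 8 of 14. The other 5 of the first 10 were 8030451A03Rik, 1700001K23Rik, 1700054A03Rik, Lmntd1 and Mir1898, all under 20 normalised counts in the mean of Ctrl femurs. Inside the gene body, the most were found in long genes: Fat3, a giant cadherin gene, had 53 of 103 strong peaks lost, Wwox 52 of 172 and Pard3b 52 of 133. Ptprd had 42 of 123, Atrnl1 39 of 80, Tmtc2 39 of 95, Magi1 39 of 138, Auts2 38 of 147, Lpp 36 of 121 and Magi2 36 of 101. Ermp1, 1700001K23Rik, 1700054A03Rik and Atrnl1 lie on chromosome 19 and Lmntd1 and Magi1 on chromosome 6, the chromosomes with the highest shares lost.

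Between gene lists, the share of strong peaks lost within 30 kb of the start sites ranged from 15.6% to 36.2%, with a peak near 2 start sites counted for both. Around the 57 Bone60 genes on these chromosomes, a set of bone-selective genes that the study drew from public RNA-seq data of many tissues, 89 of 504 strong peaks were lost (17.7%). Around genes of osteoblasts and osteocytes it was 37 of 223 (16.6%), around fibrillar collagens and their crosslinking enzymes 32 of 193 (16.6%), and around BMP and TGF-beta signalling genes 42 of 270 (15.6%). Wnt signalling genes had 58 of 299 (19.4%), limb and skeletal patterning genes 47 of 188 (25%) and chondrocyte genes 21 of 84 (25%). Around neutrophil genes 32 of 90 were lost (35.6%), around genes of B-cell precursors 25 of 69 (36.2%), around adipocyte genes 36 of 116 (31.0%) and around fibroblast genes 31 of 98 (31.6%). Endothelial genes had 14 of 50 (28.0%), skeletal muscle genes 17 of 65 (26.2%), osteoclast genes 12 of 58 (20.7%) and erythroid genes 5 of 19 (26.3%). The 13 genes of methylation writers and the TET system had 13 of 74 (17.6%). Strong peaks near Bone60 genes had the higher median -log10 q, 20.9 against 18 near neutrophil and 16.7 near B-cell precursor genes. Among peaks with a -log10 q of 10 to 20 the shares were 31.5% for Bone60, 51.8% for neutrophil and 47.6% for B-cell precursor genes, against 41.8% over all measured genes. In that range chondrocyte genes had 50% lost, adipocyte genes 44.0% and fibroblast genes 43.4%, while the other lists ranged from 27.5% for methylation writers and the TET system to 39.4% for endothelial genes. No test of these differences was made.

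Of the Bone60 genes 40 had a lost peak within 30 kb. Insc, which orients dividing cells, had 7 of 14 strong peaks lost, Spp1 5 of 17, and Cdh15, which encodes M-cadherin, 5 of 12. Runx2 had 4 of 11, Dlx3 4 of 9, Entpd3, an ectonucleotidase gene, 4 of 15, and Wnt4, a Wnt ligand gene, 4 of 9. Rhbdl2, a rhomboid protease gene, had 3 of 11, and Lox, the collagen crosslinking oxidase gene, 3 of 7. Inside Runx2, only 3 of 67 strong peaks were lost. VitC-dependent lost peaks lay within 30 kb of 11 of the 57 Bone60 genes, and of 2378 of all 23185 measured genes. The 11 were Spp1 and Cdh15 with 2 each, and Insc, Runx2, Rhbdl2, Lox, Tnc, Slc13a5, Dlx6, Dlx5 and Alpl with 1 each, a list set after the values were seen.

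RNA was then compared between Tet1/2 cKO and Ctrl femurs with limma over 16780 genes. The targeted genes did not differ in their counts over the whole gene. Tet1 had 374, 420 and 435 normalised counts in Ctrl and 485, 415 and 442 in Tet1/2 cKO. Tet2 had 2236, 2512 and 2251 against 2970, 1851 and 2351, and Tet3, which was not deleted, 3788, 4653 and 3434 against 4477, 3657 and 4069. Such counts include exons outside the floxed part and cells without Cre, so they do not check the deletion. The libraries held 28.6 to 49.8 M reads over genes in the 11 of 12 whose whole reads could be recovered.

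Near lost peaks, no gene passed the test. Of the 10928 tested genes with a lost peak within 30 kb, 0 had an adjusted p under 0.05 by limma, nor did any of all 16780 (0%), and edgeR gave 0 as well. At an unadjusted p under 0.05, 365 were lower (3.34%) and 197 higher (1.80%), against 3.28% and 1.76% of all genes tested. The median log2 fold change was 0.01 near lost peaks and -0.01 over all genes. It was 0.04 with 3 to 4, 0.07 with 5 to 7 and -0.08 with 8 or more lost peaks, the last over 19 tested genes. Where genes had 10 or more strong peaks, it was -0.14 for the 744 with under 10% of them lost and 0.09 for the 150 with 50% or more lost. DESeq2 called 6 genes near a lost peak, all lower: Ucma, Matn3, Syt6, Abhd8, Calml3 and Krt75. That was 0.0549% of the 10928, against 11 of all 16780 genes tested (0.0656%).

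Bone60 genes had lower values in Tet1/2 cKO with or without a lost peak. Of the 40 with a lost peak, 26 had all Tet1/2 cKO libraries below all Ctrl libraries (65.0%), and of the 17 without one, 9 did (52.9%), against 10.0% of all genes tested. Their median log2 fold changes were -0.96 and -0.78. None passed the adjusted threshold. Spp1 had 70974, 115832 and 74244 normalised counts in Ctrl and 30172, 51980 and 47467 in Tet1/2 cKO (log2 fold change -1.01 ± 0.44 SE, adjusted p = 0.723 by limma). Insc had 602, 1041 and 942 against 292, 593 and 408 (-1.02 ± 0.58). Cdh15 had 702, 993 and 753 against 121, 410 and 412 (-1.56 ± 0.58). In these 3 genes every Tet1/2 cKO library was below every Ctrl library. Dlx3 had 630, 979 and 838 against 182, 521 and 269 (-1.45 ± 0.54). Insc, Cdh15 and Dlx3 also had an adjusted p of 0.723 by limma. In Runx2 the groups overlapped, with 3488, 4856 and 4799 against 3964, 3397 and 3579. Syt6, with 10 lost peaks, had 515, 714 and 571 against 148, 163 and 47.0 (-2.50 ± 0.57, adjusted p = 0.723 by limma). The chondrocyte gene Comp, with 4 of 7 strong peaks lost, had 881, 2507 and 1534 against 100, 450 and 516 (-2.39 ± 0.70, adjusted p = 0.723 by limma).

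The summed marker counts of bone cells separated the groups, as did those of endothelial cells and fibroblasts. Those of the other cell types with a list, among them neutrophils, skeletal muscle and chondrocytes, overlapped between the groups. The summed normalised counts of 23 osteoblast and osteocyte genes were 1229436 to 1544504 in Ctrl and 395417 to 863073 in Tet1/2 cKO. Those of 16 endothelial genes were 24165 to 29500 and 13084 to 21863, and those of 14 fibroblast genes 144758 to 191164 and 97367 to 129140. Those of 16 neutrophil genes were 929795 to 1393745 and 1293254 to 2911344. The sum over 15 skeletal muscle genes, which stand for tissue left on the bone, ranged from 164383 to 698673 and from 5081 to 604441. None of these genes was at 0 in all libraries of a group. Their part in the RNA differences or in the lost peaks was not tested.

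On VitC withdrawal, genes near lost peaks were called about as often as genes at large. Of the 8973 tested genes with a lost peak within 30 kb, 665 fell (7.41%) and 560 rose (6.24%) in VitC+/- against VitC+ femurs at an adjusted p under 0.05 by limma, against 7.57% and 5.93% of all 12565 genes tested. Without scaling of the libraries the counts were 273 and 347. Without VitC+ replicate 1, 2 or 3 or VitC+/- replicate 1 they were 214 to 288 and 119 to 207. The median log2 fold change was 0.03 near lost peaks and 0.02 over all genes. Of 1648 tested genes near a VitC-dependent lost peak, 118 fell (7.16%) and 97 rose (5.89%). All these changes are against VitC+ femurs. WT femurs did not always lie near VitC+, as the values of Cdh15, Spp1 and Runx2 below show.

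Among genes with 2 or more lost peaks, the 5 that fell most were Mlip, Entpd3, Igll1, Vpreb1 and BC055402. Mlip, a gene of heart and muscle with 4 of 12 strong peaks lost, had 26.0, 16.8 and 24.8 scaled RPKM in VitC+ and 1.55, 0.595 and 0.886 in VitC+/- (log2 fold change -3.96 ± 0.51 SE, adjusted p = 0.00300 by limma). Entpd3 fell from 37.0, 22.3 and 41.7 to 1.64, 1.41 and 2.19 (-3.89 ± 0.36, adjusted p = 6.83e-04 by limma). BC055402, with 2 of 13 lost, fell from 6.28, 5.37 and 7.63 to 0.0169, 0.0367 and 0.0608 (-3.67 ± 0.36). Igll1 and Vpreb1 encode the surrogate light chain of the B-cell precursor receptor, are neighbours on chromosome 16, and each had 3 of 3 strong peaks lost within windows that overlap. Igll1 had 4.87, 12.7 and 9.77 in VitC+ and 0.160, 0.105 and 0.138 in VitC+/- (-3.83 ± 0.71, adjusted p = 0.0115 by limma), and Vpreb1 fell by 3.75 on the log2 scale. In the Tet experiment the groups of Igll1 overlapped, with 547, 757 and 661 normalised counts in Tet1/2 cKO and 924, 447 and 763 in Ctrl.

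Of the genes with 2 or more lost peaks that rose most, Hbegf, Mir26b and Fst are given here. Fst, which encodes the activin antagonist follistatin and had 4 of 7 strong peaks lost, rose from 3.39, 1.86 and 2.42 to 13.0, 14.7 and 22.3 scaled RPKM (2.48 ± 0.28, adjusted p = 0.00171 by limma). Hbegf, an EGF-family growth factor gene, with 3 of 10 lost, rose from 1.52, 1.22 and 1.48 to 11.6, 6.36 and 29.1 (2.82 ± 0.46, adjusted p = 0.00705 by limma). Mir26b, a microRNA gene of 0.085 kb inside another gene, rose by 2.62 ± 0.62, but reads of its host cannot be told apart from its own at gene level. Leaving out 1 of the 6 libraries at a time, the calls of Mir26b and Vpreb1 were lost in 4 fits each, with adjusted p by limma up to 0.0953 and 0.0789. That of Igll1 was lost without VitC+ replicate 2 (0.0514). Mlip, Entpd3, BC055402, Fst and Hbegf kept theirs without any of the 6.

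Of the 40 Bone60 genes with a lost peak, 15 fell and 1 rose, and of the 16 tested without one, 6 fell and 1 rose, where 7.57% of all 12565 genes tested fell and 5.93% rose. Cdh15 fell from 13.8, 7.31 and 12.3 to 4.03, 1.93 and 2.46 (-1.82 ± 0.33, adjusted p = 0.0109 by limma). Spp1 rose, from 1356, 1443 and 1406 to 4187, 2277 and 4123 (1.28 ± 0.28, adjusted p = 0.0191 by limma), the direction opposite to its lower values in Tet1/2 cKO. Dlx3 fell by 2.15, Insc by 1.88 and Rhbdl2 by 2.03 on the log2 scale, with adjusted p of 0.0418, 0.0441 and 0.0341 by limma. Runx2 had 10.0, 11.1 and 13.5 against 7.26, 5.28 and 8.90 (-0.67 ± 0.20, adjusted p = 0.0573 by limma), and passed the threshold without VitC+/- replicate 3 (0.0367 by limma). The groups of Cdh15, Spp1 and Runx2 did not overlap, as in 19.2% of all genes in the lower and 21.3% in the higher direction. Cdh15 kept its call without any 1 library. Insc lost its call without any 1 of the 6, Dlx3 and Rhbdl2 without 5 of them and Spp1 without 4, with adjusted p by limma up to 0.134, 0.117, 0.107 and 0.0787.

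**Figure D5:**
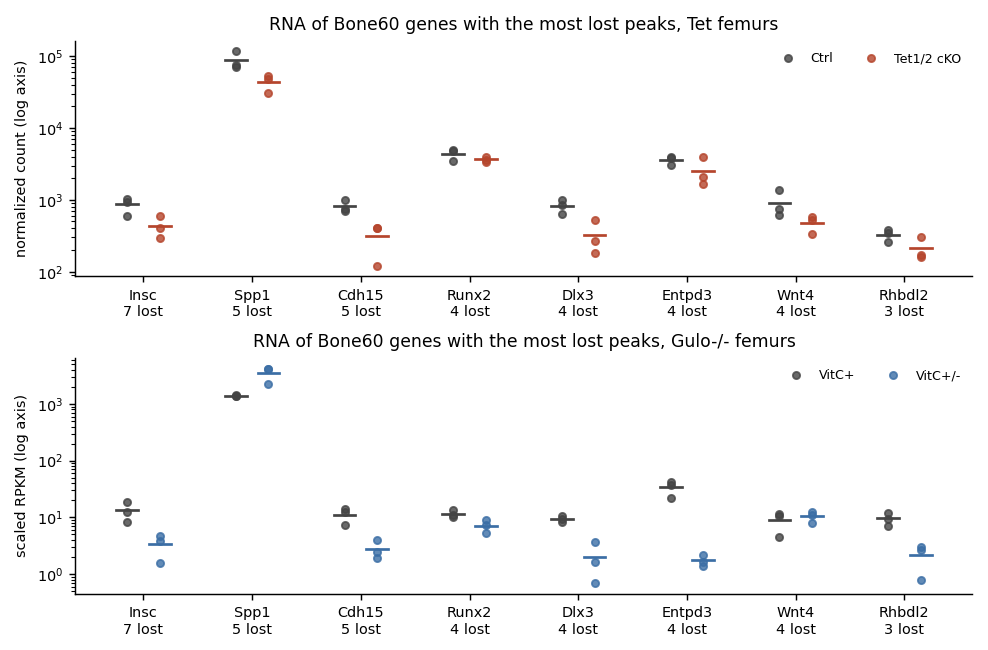
RNA of 8 Bone60 genes with the most lost peaks within 30 kb, on log axes: normalised counts in Ctrl and Tet1/2 cKO femurs (top) and scaled RPKM in VitC+ and VitC+/- femurs (bottom), with 1 point per library and a bar at the mean of 3. Cdh15, Dlx3 and Insc lie lower in both comparisons, while Spp1 lies lower in Tet1/2 cKO and higher in VitC+/-.

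Of the long genes, Fat3 fell by 1.52, Tmtc2 by 1.71 and Magi2 by 1.38 on the log2 scale (adjusted p = 0.0323, 0.0124 and 0.00813 by limma). Dcn, the matrix proteoglycan decorin, with 7 of 16 strong peaks lost, fell from 196, 154 and 281 to 24.2, 36.8 and 35.1 scaled RPKM (-2.67 ± 0.47, adjusted p = 0.0100 by limma). In Tet1/2 cKO it had 12119, 27099 and 18772 normalised counts against 26867, 31182 and 44176 (-0.86 ± 0.59, adjusted p = 0.723 by limma). Ltf, a secondary granule gene of neutrophils with 5 of 11 lost, fell by 2.23. Col11a1, a fibrillar collagen gene of cartilage with 15 of 35 strong peaks inside it lost, fell by 3.28, and Blnk, a B-cell adaptor gene with 5 of 12, fell by 1.59. Tet2 itself rose, from 3.17, 4.70 and 3.69 to 8.82, 8.79 and 6.60 scaled RPKM (0.98 ± 0.20, adjusted p = 0.0153 by limma), with 1 of 9 strong peaks within 30 kb lost. Fat3 lost its call without 5 of the 6 libraries, Col11a1 and Blnk without 4, Tet2 without 3 and Tmtc2 without VitC+ replicate 3, with adjusted p by limma up to 0.110, 0.0791, 0.0727, 0.0655 and 0.0537. Magi2 fell under the filter on low values without some libraries and kept its call in the 3 fits it entered.

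Over whole lists, 12 of 14 tested genes of B-cell precursors fell and 0 rose on VitC withdrawal, and 4 of 16 neutrophil genes fell and 1 rose, against the same 7.57% and 5.93% over all genes. Of the osteoblast and osteocyte genes 8 of 21 fell and 1 rose, of the chondrocyte genes 5 of 11 fell and 0 rose, and of the fibrillar collagen genes 3 of 24 fell and 0 rose. Of the osteoclast genes 0 of 12 fell and 5 rose, of the erythroid genes 0 of 12 and 4, and of the adipocyte genes 0 of 19 and 2. Of the Wnt signalling genes 4 of 24 fell and 2 rose, of the BMP and TGF-beta genes 4 of 30 and 4, of the limb and skeletal patterning genes 1 of 19 and 0, of the fibroblast genes 2 of 12 and 0, and of the methylation writers and TET system 0 of 9 and 1. None of 16 endothelial or 14 skeletal muscle genes passed. The summed scaled RPKM of the 16 genes of B-cell precursors was 98.0 to 183 in VitC+ and 19.5 to 35.5 in VitC+/-, and that of the 12 osteoclast genes 1918 to 2648 and 2976 to 6563. That of the 16 neutrophil genes was 31115 to 49143 and 8631 to 26079, and that of the 17 chondrocyte genes 368 to 953 and 57.1 to 86.0. The sums of the other lists overlapped between VitC+ and VitC+/-. Their part in the differences of single genes was not tested.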

How the data were processed

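5hmC was profiled by hMeDIP-seq and RNA by RNA-seq in mouse femurs, and 5hmC, H3K27me3 and H3K9me3 in MC3T3-E1 cells. Per the labels and the study's methods, the authors mapped reads to mm10 with BWA 0.7.15.1 and called peaks with MACS2 on the pooled replicates of each group, 3 for femurs and 2 for cells, at an FDR of 0.05. The deposited peak lists give each peak's fold enrichment, -log10 p-value and -log10 q-value. The submitters' notes name MACS2 2.1.1.20160309.6. For the Tet femurs, the authors deposited gene read counts divided by size factors (STAR 2.6.0b-1, featureCounts 1.6.3, DESeq2 2.11.40.2), a signal from which whole reads were recovered in 11 of 12 libraries. For the Gulo-/- femurs, they deposited RPKM values per gene, whose depth is unknown. Totals of reads are not given by the peak lists, so the background was inferred from fold and p under the Poisson model of MACS2.

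Lost and kept peaks were set by an overlap of 1 bp, and the overlap functions were tested on simulated data. Places were taken from RefSeq GRCm38 at each peak's midpoint, with a priority of start sites (1 kb on either side) over coding exons, UTRs, other exons and introns. Names in the RNA tables were matched to RefSeq, 25293 of 25938 for Tet and 23061 of 23315 for Gulo-/- femurs. RNA was tested with limma 3.58.1 (moderated, with trend) on log2(value + 1) for normalised counts of at least 10 in 3 libraries, all 4 Tet groups in the fit, and on log2(RPKM + 0.5) after median-of-ratios scaling for RPKM of at least 1 in 3 libraries, with WT, VitC+ and VitC+/- in the fit. Fold changes on these scales understate those of low genes. Values are given beside SE, and p-values were adjusted by Benjamini-Hochberg over all genes at a threshold of 0.05. The study's methods give 3 mice per femur group. edgeR 4.0.16 and DESeq2 1.42.0 were run on the recovered reads of 11 libraries as alternatives. Of the recovered values up to 200 reads, 100% were whole within 0.02, and over all genes edgeR called 0 and DESeq2 11 in Tet1/2 cKO against Ctrl. Called genes were also recovered in data simulated with known changes. Other peak thresholds, gaps, gene windows, pseudocounts, filters, scalings and each library left out were tried.

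The members and gene lists were chosen with earlier results of these data known. Named regions were the 10 strongest lost peaks, the 3 on either side of the threshold and those nearest to named Bone60 genes. Named genes were the measured genes with the most lost peaks within 30 kb or inside them, the Bone60 genes with the most, Tet genes, the 5 genes past the threshold that fell and rose most among those with 2 or more lost peaks, and up to 4 genes of each list with the most lost peaks. Other fold changes and p-values of the authors were not used. Some items that the rule names are not reported here.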

Additional observations from a re-analysis of the deposited data

How the results depend on the processing

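The number of lost peaks followed the rule: 12702 at a -log10 q of at least 15, 5344 at 20, and 61186 when a Ctrl peak counted as lost with under 50% of it covered by Tet1/2 cKO peaks, while leaving out those within 500 bp of a Tet1/2 cKO peak or on chromosomes 6 and 19 (chosen after seeing the data) kept it within 1.5 times. The share inside a gene was 72.0% at a -log10 q of at least 15 and 63.2% for protein-coding genes alone. The share with a VitC+ femur peak was 57.5% at a -log10 q of at least 15, 51.8% without chromosomes 6 and 19, 48.0% with VitC+ peaks of a -log10 q of at least 5, and 31.4% when 50% of the peak had to be covered. The VitC-dependent share was 10.9%, 11.0% and 9.14% with that cover, with femur peaks of a -log10 q of at least 5, and with no VitC+/- peak within 500 bp (the last chosen after seeing the data). The share with an MC3T3-E1 VitC+ peak was 55.5% at a -log10 q of at least 15, 49.1% without chromosomes 6 and 19 and 37.3% with that cover.

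In Tet1/2 cKO femurs no setting but DESeq2 called a gene near a lost peak, which called 6 lower. The median log2 fold change near lost peaks was -0.01 with edgeR and with a window of 100 kb, 0.03 for genes holding a lost peak, 0.05 for lost peaks of a -log10 q of at least 20 (chosen after seeing the data) and -0.01 to 0.01 with 1 library left out. Centring each library on its median moved it to 0.15, with that of all genes going from -0.01 to 0.13. On VitC withdrawal, the genes called lower and higher near lost peaks numbered 383 and 307 with a window of 10 kb, 405 lower for genes holding a lost peak, and 167 and 164 for lost peaks of a -log10 q of at least 20, all with fewer genes tested. They were 273 and 347 without scaling, where the median was 0.14 and that of all genes went from 0.02 to 0.13. With 1 library left out they were 214 to 537 and 119 to 428. The lowest counts were without VitC+/- replicate 1 (214) and VitC+ replicate 2 (119). Counts without VitC+ replicates 1 and 3 were also over 1.5 times lower. The median was 0.04 by the nearest start site and 0.06 for genes holding a lost peak. Same-numbered libraries deviated together with correlations of 0.23, -0.12 and 0.17 in the Tet and -0.07, 0.06 and 0.37 in the Gulo-/- femurs, so the numbers were not taken to pair animals. With the replicate number as a block, 0 genes near lost peaks were called in Tet1/2 cKO, with a median of 0.01, and 847 lower and 717 higher on VitC withdrawal, with a median of 0.03, and Runx2 passed the threshold there (log2 fold change -0.67, adjusted p = 0.0284 by limma). No gene given with its fold change turned its direction under these alternatives. What sets these changes was not tested, other than fewer genes or samples where stated. Pooled lists limit all shares to counting error. Read depth, which the peak lists do not give, may limit which Tet1/2 cKO peaks could be listed.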

Other observations

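The genes with the largest part of their strong peaks lost were chosen after their values were seen. Among 3067 genes with 8 or more strong peaks inside them, the median share lost was 23.1%, none had lost all and 219 had lost none. Rab28, a GTPase gene of cilia, had lost 7 of 8. Kdm2a, which encodes a histone H3 lysine demethylase that binds unmethylated CpG islands, had lost 9 of 11 on chromosome 19, and Trip12, a ubiquitin ligase gene, 12 of 15. Baz1b, a chromatin remodelling gene, had lost 8 of 10, and Trrap, a scaffold gene of histone acetyltransferase complexes, 7 of 9. Eif3a, a translation initiation gene also on chromosome 19, had lost 7 of 9. In Ctrl femurs these genes had means of 1994, 6761, 11104, 10558, 3785 and 13939 normalised counts.

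Lost peaks near genes that DESeq2 alone called lower in Tet1/2 cKO were as follows. Ucma and Matn3, both of cartilage, had 5 of 6 and 1 of 6 strong peaks within 30 kb lost. Ucma had 12.7, 24.4 and 27.8 normalised counts in Ctrl and was listed at 0 in all 3 Tet1/2 cKO libraries. It was also at 0 in all 3 Tet1 cKO libraries, with 9.89, 7.84 and 29.3 in Tet2 cKO. Matn3 had 48.6, 482 and 35.6 in Ctrl, with 1 library far above the others, against 0, 3.80 and 7.68. Calml3 had 3 of 6 lost and a mean of 138 against 9.03, and Krt75 4 of 4 and 38.7 against 2.8. In Tet1 cKO, Matn3 had 25.9, 9.83 and 0, Calml3 10.9, 11.8 and 4.02, and Krt75 13.6, 9.83 and 0. By limma all had an adjusted p of 0.723 in Tet1/2 cKO.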
